A study of Mus musculus with 6 samples.

Results

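Glycolysis and the response to low oxygen were followed through 32 genes in dermal fibroblasts, connective tissue cells of the skin. The set holds 24 genes that carry glucose from uptake to lactate export and 8 hypoxia response genes, all picked by symbol. Their symbols matched 33 of the 28293 gene identifiers counted in each library, because 2 identifiers carry the symbol Aldoa. A total of 32 identifiers had enough counts to be tested, and Aldoc did not.

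Messenger RNA was sequenced from cultured mouse cells labelled Lap2alpha KO (KO, 3 libraries) and WT (3 libraries). LAP2alpha is a nuclear protein that associates with A-type lamins away from the envelope, and its gene Tmpo also encodes membrane-bound LAP2 isoforms. All cells grew in serum-containing DMEM, and the labels name no low-oxygen treatment in either group. The labels do not say how the knockout was made, how many clones it comprises, or whether replicates were separate cultures, so every p-value rests on the variation among these 6 libraries alone, and a difference between lines cannot be told apart from the loss of LAP2alpha.

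The libraries held 25768678 to 27281473 counts in KO and 22159339 to 26553616 in WT. Tmpo had 131, 118 and 129 CPM in KO, against 262, 256 and 257 CPM in WT, or 126 ± 7.14 CPM in KO libraries and 259 ± 3.36 CPM in WT libraries (SD, n = 3 each, as for every mean below). This count sums all LAP2 isoforms, so it does not measure the alpha isoform alone. CPM gives a gene's count on a scale of 1000000 counts per library, here after TMM scaling, which corrects library totals for composition. Of 10 fibroblast markers 8 were higher and 1 lower in KO, and their summed level was 23191 to 24832 CPM in KO and 7283 to 7907 CPM in WT. Summed markers of other cell types were low in every library. They came to 8.32 to 10 CPM in KO and 0.992 to 1.26 CPM in WT for blood, 4.38 to 4.49 CPM in KO and 1.57 to 2 CPM in WT for endothelium, and 3.07 to 3.28 CPM in KO and 0.792 to 0.951 CPM in WT for muscle. The sums were 3.72 to 5.13 CPM in KO and 5.08 to 7.46 CPM in WT for keratinocytes and 3.58 to 4.96 CPM in KO and 2.6 to 4.61 CPM in WT for melanocytes. Among these Ptprc, Mlana, Kdr, Krt14 and Hbb-bs were at or near 0, while Hba-a1 averaged 8.02 ± 0.598 CPM in the KO libraries and 0.353 ± 0.133 CPM in the WT libraries. Vwf averaged 3.82 CPM in KO and 0.391 CPM in WT, and Mitf 3.56 CPM in KO and 1.36 CPM in WT. Des averaged 2.85 CPM in KO and 0.623 CPM in WT, and Krt10 4.03 CPM in KO and 5.87 CPM in WT. Hba-a1, Vwf, Mitf and Des were called higher in KO, Krt10, Cdh5 and Dct lower, and Cd68 was not called. Mitochondrial genes took 3.76 to 4.46% of counts in KO and 1.99 to 2.45% in WT. The part of these differences in the results below was not tested.

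Glycolysis splits glucose into pyruvate, with an investment phase from hexokinase to aldolase and a payoff phase from GAPDH to pyruvate kinase. Lactate dehydrogenase then turns pyruvate into lactate, which monocarboxylate transporters export. Several steps have isozymes from separate genes that differ in tissue and regulation. Under low oxygen the transcription factor HIF-1 raises many of these genes, and prolyl hydroxylases and the VHL protein keep its alpha subunit low when oxygen is present.

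The KO libraries carried less RNA for the steps after GAPDH and a different mix of isozymes at several steps before and after it. Pgk1, Pgam1, Eno1 and Ldha, which each lead their step, were at least 2-fold lower in KO. Gpi1, Aldoa, Tpi1 and Gapdh, the steps between them and hexokinase apart from phosphofructokinase, differed by at most 0.24 on the log2 scale. Within families, Hk1, Hkdc1, Pfkm, Pfkfb3, Eno2, Ldhb and Slc16a3 rose while Hk2, Pfkl, Pfkp, Eno1, Ldha and Slc16a1 fell. In bulk RNA, fewer cells expressing a gene and less RNA per cell cannot be told apart.

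Of the 32 tested identifiers 9 were called higher and 15 lower in KO, at an edgeR adjusted p under 0.05. Across all 15081 tested genes 37.7% were called higher and 37.5% lower. The called share of the set, 75%, was therefore close to the background of 75.1%, and the number of calls is not a result about these genes. With a change of at least 1.5-fold as well, 8 were higher and 9 lower, against a background of 25.7% higher and 22.5% lower. The libraries of the 2 groups were fully separated for 25 of the 32, beside 76.7% of all tested genes. By class, 7 of 24 glycolysis identifiers rose and 12 fell, and their median log2 fold change was −0.20. The median log2 fold change (KO over WT) was −0.19 in the set and 0.01 over all tested genes, and the median absolute value was 0.65 in the set and 0.58 over all tested genes.

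**Figure D1:**
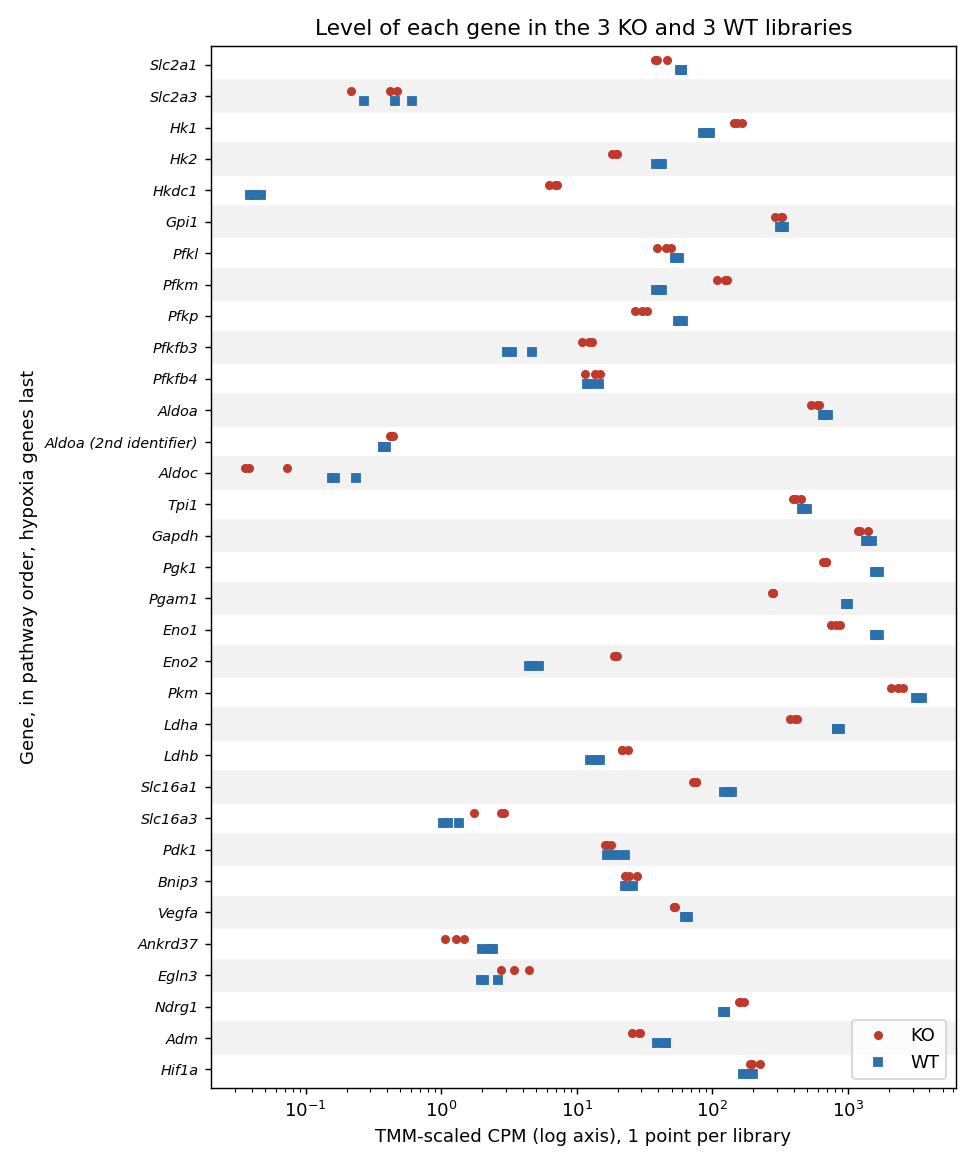
TMM-scaled CPM (log axis) of each identifier in 3 KO libraries (circles) and 3 WT libraries (squares), in pathway order with the hypoxia genes last. Pkm is the most abundant, with 2339 CPM in KO and 3341 CPM in WT, and Hkdc1 has the widest gap, between 6.76 CPM in KO and 0.0422 CPM in WT.

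Uptake of glucose is the entry step. Slc2a1 encodes GLUT1, the glucose transporter of most cultured cells, and had 37.6, 39.3 and 46.3 CPM in KO, against 59.8, 59.8 and 57.6 CPM in WT. The groups did not overlap, and Slc2a1 fell (log2 KO/WT −0.52, SE 0.0763, edgeR adjusted p = 0.00011). Slc2a3, which encodes the neuronal-type transporter GLUT3, had 0.214, 0.474 and 0.419 CPM in KO and 0.606, 0.271 and 0.455 CPM in WT. These are 6 to 13 reads per library, the groups overlapped and the gene was not called (−0.24, SE 0.417, edgeR adjusted p = 0.61; −0.51 to 0.04 over the alternatives). Per kb of exon, the scale used to compare genes, Slc2a1 held 99.6 ± 0.153% of the pair in KO and 99.6 ± 0.135% in WT. That share and the uptake ratio below leave out the transporter genes Slc2a6, Slc2a8 and Slc2a10, which are outside the set and were called higher. Per kb they had 3.14, 2.9 and 4.49 CPM in KO and 1.46, 0.498 and 1.75 CPM in WT. Slc2a1 itself had 11.7 CPM per kb in KO and 16.8 CPM per kb in WT.

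Hexokinase traps glucose in the cell by phosphorylation, and its family shifted away from Hk2. Hk2, the insulin- and hypoxia-responsive isozyme of muscle, fat and many tumours, had 18.1, 19.3 and 19.7 CPM in KO, against 42.5, 38.3 and 41.6 CPM in WT. It fell 2.14-fold, with every KO library under every WT library (log2 KO/WT −1.10, SE 0.0673, edgeR adjusted p = 1.4e-07). Hk1, the broadly expressed isozyme, had 144, 151 and 165 CPM in KO, against 85.5, 93.5 and 96.6 CPM in WT. It rose 1.67-fold (0.74, SE 0.0678, edgeR adjusted p = 3.1e-06), again without overlap.

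Hkdc1, a hexokinase relative found beside Hk1, was nearly silent in WT. It had 174, 189 and 189 reads in KO and 1 read in each WT library. Relative to library size, the KO to WT ratio of the summed counts was 161 with a 95% Clopper-Pearson interval of 54.7 to 782, which covers counting error only. Hkdc1 and Hk1 lie head to tail on the minus strand of chromosome 10 in GRCm38, Hkdc1 at 62383137 to 62422491 and Hk1 at 62268855 to 62379908, with 3228 bp between them. The deposited counts do not show whether any transcript runs from one gene into the other.

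On the per-kb scale the summed hexokinase level was 21.1, 22.3 and 24.1 CPM per kb in KO and 17.1, 17.4 and 18.3 CPM per kb in WT, so the total differed less than its parts. Hk1 made up 80.0 ± 0.52% of the family in KO and 61.1 ± 2.37% in WT. Hk2 made up 14.2 ± 0.435% in KO and 38.8 ± 2.37% in WT, and Hkdc1 5.86 ± 0.157% in KO and 0.0468 ± 0.00534% in WT (a difference of 5.81 percentage points, or 3.74 with unscaled counts). None of these 3 shares overlapped between groups, and each gave a 2-sided exact permutation p = 0.1 (n = 3 each), the smallest that 3 against 3 libraries allow. That limit holds for every share and step total below, so none of them can reach 0.05.

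Glucose-6-phosphate isomerase, encoded by Gpi1, was not called, with a mean of 314 ± 20.3 CPM in the KO libraries and 326 ± 12.9 CPM in the WT libraries (−0.06, edgeR adjusted p = 0.41; 0.02 with library totals alone). Gm26762 on the other strand overlaps 11.5% of its exonic sequence.

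Phosphofructokinase commits sugar to glycolysis, and Pfkm made up more of its isozyme family in KO. Pfkm, the muscle-type subunit, had 109, 124 and 128 CPM in KO, against 38.3, 42.4 and 41.1 CPM in WT. It rose 2.97-fold without overlap (log2 KO/WT 1.57, SE 0.0723, edgeR adjusted p = 1.9e-08). The platelet-type subunit gene Pfkp had 26.8, 30.2 and 32.8 CPM in KO, against 55.9, 61.2 and 57.0 CPM in WT, and fell (−0.96, SE 0.0771, edgeR adjusted p = 1.1e-06). The liver-type subunit gene Pfkl had 39.0, 45.3 and 49.9 CPM in KO and 53.3, 56.4 and 55.3 CPM in WT, a smaller decrease (−0.30, SE 0.0822, edgeR adjusted p = 0.0071).

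Pfkm took 80.2 ± 0.653% of the length-scaled phosphofructokinase counts in KO and 49.1 ± 0.533% in WT. The share of Pfkl was 14.8 ± 0.557% in KO and 33.3 ± 0.473% in WT, and that of Pfkp 4.96 ± 0.109% in KO and 17.5 ± 0.341% in WT. The summed level was 1.82 times as high in KO, at 45.1 ± 3.98 CPM per kb in KO and 24.7 ± 1.07 CPM per kb in WT. Exonic length is uncertain here, since the annotation gives Pfkp 13401 bp and Pfkm 3340 bp over all transcripts. The summed level and its ratio depend on these lengths, which give Pfkp little weight and Pfkm much. Not divided by length, Pfkm averaged 121 CPM in KO and 40.6 CPM in WT, and Pfkp 29.9 CPM in KO and 58.1 CPM in WT. Pfkl averaged 44.7 CPM in KO and 55 CPM in WT. With unscaled counts the KO minus WT difference in share was 35.4 percentage points in place of 31.1 for Pfkm and −22.5 in place of −12.6 for Pfkp. Gm26513 overlaps 10.2% of Pfkm's exonic sequence on the same strand.

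**Figure D2:**
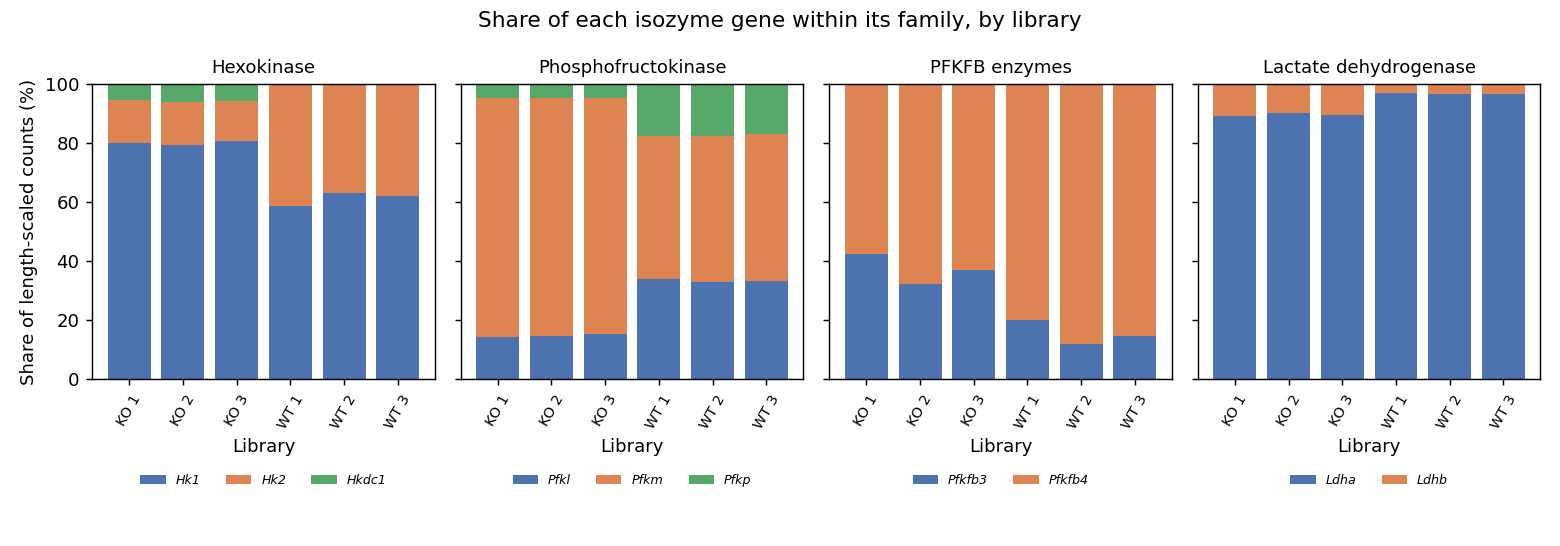
Share of each gene in the length-scaled counts of the set's genes of its family (%, stacked to 100) in the 3 KO and 3 WT libraries. Hk2 takes 13.7 to 14.5% in KO and 36.9 to 41.5% in WT, and Pfkm takes 79.5 to 80.7% in KO and 48.5 to 49.5% in WT.

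The PFKFB enzymes make and remove fructose-2,6-bisphosphate, the activator of phosphofructokinase. Pfkfb3, whose enzyme mainly makes it, had 13, 10.9 and 12.4 CPM in KO, against 4.66, 3.06 and 3.35 CPM in WT. It rose 3.3-fold without overlap (log2 KO/WT 1.72, SE 0.149, edgeR adjusted p = 2e-06). Pfkfb4 had 11.5, 14.8 and 13.7 CPM in KO and 11.9, 14.7 and 12.6 CPM in WT, ranges that overlap almost fully (0.02, SE 0.114, edgeR adjusted p = 0.85; −0.06 to 0.13 over the alternatives). Pfkfb3 made up 37.1 ± 5.06% of the pair in KO and 15.6 ± 4.19% in WT. That share and the summed level of the pair leave out Pfkfb1 and Pfkfb2, which are outside the set. Pfkfb1 had 0.925 CPM per kb in KO and 2.15 CPM per kb in WT and was called lower. Pfkfb2 had 0.663 CPM per kb in KO and 0.43 CPM per kb in WT and was called higher. Pfkfb3 itself had 1.6 CPM per kb in KO and 0.488 CPM per kb in WT, less than Pfkfb1 in WT.

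The middle of the pathway differed little. Aldoa, the main aldolase of muscle and fibroblasts, had 537, 592 and 612 CPM in KO, against 654, 715 and 681 CPM in WT. It fell by a small amount (−0.24, SE 0.0615, edgeR adjusted p = 0.0053). An upstream gene model with the same symbol, ENSMUSG00000114515, had 12, 12 and 11 reads in KO and 8, 10 and 9 in WT, without overlap, and was not called (0.18, edgeR adjusted p = 0.66). Aldoc, the brain-type aldolase, had 1, 2 and 1 reads in KO and 5, 4 and 4 in WT, too few to be tested.

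Triose phosphate isomerase, encoded by Tpi1, averaged 422 ± 29.0 CPM in the KO libraries and 475 ± 24.3 CPM in the WT libraries. Its decrease (−0.17, edgeR adjusted p = 0.03) was not called with library totals alone (−0.09, edgeR adjusted p = 0.19) or without KO replicate 1 (−0.12), KO replicate 2 (−0.16) or WT replicate 2 (−0.13). Gapdh, often used as a reference gene, averaged 1276 ± 109 CPM in the KO libraries and 1417 ± 68.0 CPM in the WT libraries and was not called (−0.15, edgeR adjusted p = 0.066). Its range over the alternatives was −0.23 to −0.07, and it was called lower with no low-count filter (−0.17, edgeR adjusted p = 0.011), without KO replicate 3 (−0.23, edgeR adjusted p = 0.0077) and without WT replicate 1 (−0.20, edgeR adjusted p = 0.029).

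From phosphoglycerate kinase onward the leading gene of every step fell in KO. Pgk1, on chromosome X, encodes the kinase that makes the first ATP of the payoff phase. It had 653, 690.4 and 695 CPM in KO, against 1701, 1669 and 1594 CPM in WT, and fell 2.44-fold (log2 KO/WT −1.28, SE 0.0525, edgeR adjusted p = 8.7e-09). Pgam1, the mutase that moves the phosphate of 3-phosphoglycerate, had 276, 282 and 282 CPM in KO, against 999.6, 984 and 971 CPM in WT. At 3.52-fold this was the largest decrease in the set (−1.81, SE 0.0470, edgeR adjusted p = 5.7e-10), and the libraries of each group lay close together.

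The enolases moved apart. Eno1, the ubiquitous alpha enolase, had 745, 822 and 869 CPM in KO, against 1608, 1705 and 1598 CPM in WT, a 2.02-fold decrease (−1.01, SE 0.0642, edgeR adjusted p = 1.8e-07). Eno2, the neuron-type gamma enolase, had 18.7, 19.8 and 19.6 CPM in KO, against 4.66, 5.27 and 4.42 CPM in WT, and rose 4.04-fold (2.01, SE 0.0916, edgeR adjusted p = 1.8e-08). Neither gene overlapped between groups, and Eno2 made up 2.66 ± 0.141% of the length-scaled pair in KO and 0.333 ± 0.0185% in WT. With the copies of Eno1 described below added, that difference was 1.38 percentage points in place of 2.33. Summed over both genes, enolase stood at 155 ± 11.7 CPM per kb in KO and 305 ± 11.1 CPM per kb in WT. That sum, its ratio and the share leave out Eno3, the muscle enolase gene outside the set, which had 36.1 ± 2.23 CPM per kb in KO and 8.2 ± 0.809 CPM per kb in WT, more than Eno2 in both groups.

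Pkm, the only pyruvate kinase gene of the set, had 2089.6, 2357 and 2569 CPM in KO, against 3204, 3504 and 3315 CPM in WT. It fell without overlap (−0.51, SE 0.0756, edgeR adjusted p = 0.00011). The M1 and M2 forms of pyruvate kinase come from splicing of this gene, and gene-level counts do not separate them. Gm49759 overlaps 15.3% of Pkm's exonic sequence on the same strand.

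Lactate dehydrogenase also changed in mix. Ldha, whose subunit favours the making of lactate, had 373, 406 and 423 CPM in KO, against 833, 882 and 830.4 CPM in WT, and fell 2.12-fold (−1.08, SE 0.0591, edgeR adjusted p = 6.1e-08). Ldhb, the heart-type subunit gene, had 21.7, 21.4 and 23.9 CPM in KO, against 12.5, 14.8 and 13.9 CPM in WT, and rose (0.70, SE 0.0850, edgeR adjusted p = 2.7e-05). Ldhb made up 10.5 ± 0.478% of the length-scaled pair in KO and 3.29 ± 0.198% in WT, a difference of 7.23 percentage points that was 3.7 with unscaled counts. The pair as a whole stood at 135 ± 8.25 CPM per kb in KO and 265 ± 9.42 CPM per kb in WT.

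Export of lactate also had isoforms that moved in opposite directions. Slc16a1, which encodes the transporter MCT1, had 75.6, 75.2 and 72.5 CPM in KO, against 139.7, 121 and 133 CPM in WT, and fell 1.76-fold (−0.81, SE 0.0625, edgeR adjusted p = 7.7e-07). Slc16a3, which encodes the hypoxia-inducible MCT4, had 2.78, 2.88 and 1.75 CPM in KO, against 1.03, 1.12 and 1.36 CPM in WT. It rose (1.07, SE 0.238, edgeR adjusted p = 0.002), and KO replicate 3 lay close to the highest WT library. Slc16a3 made up 2.68 ± 0.616% of the pair in KO and 0.742 ± 0.123% in WT.

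**Figure D3:**
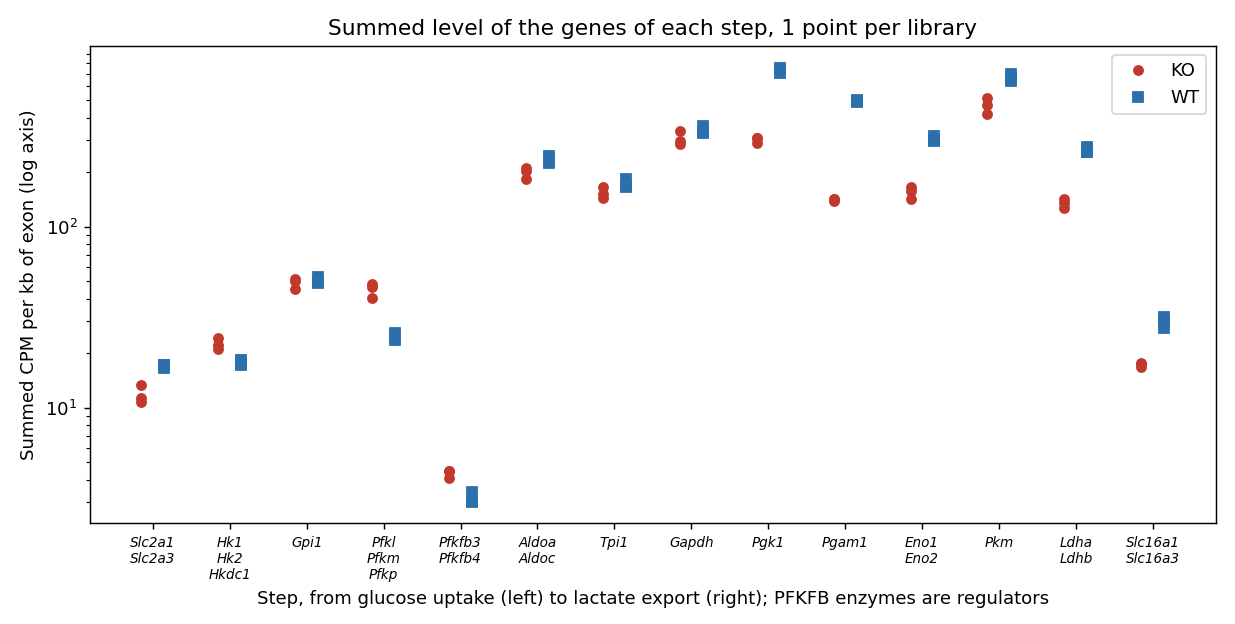
Summed CPM per kb of exon (log axis) of the set's genes of each step, 1 point per library, KO circles left of WT squares. Phosphofructokinase is higher in KO on this per-kb scale (45.1 against 24.7 in WT), and the aldolase to GAPDH steps lie close together. Phosphoglycerate mutase shows the widest gap (141 in KO against 497 in WT).

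Ordered along the pathway, the KO to WT ratio of summed CPM per kb was taken over the genes of the set only. The ratio was 0.696 for uptake, 1.28 for hexokinase, 0.962 for the isomerase and 1.82 for phosphofructokinase. The phosphofructokinase value depends on the uncertain exonic lengths of Pfkm and Pfkp given above. Further down the ratio was 0.849 for aldolase, 0.889 for triose phosphate isomerase and 0.9 for GAPDH. The ratio then stood at 0.411 for phosphoglycerate kinase, 0.284 for the mutase, 0.508 for enolase, 0.7 for pyruvate kinase, 0.51 for lactate dehydrogenase and 0.58 for export. The groups overlapped for Gpi1 and Gapdh and for no other step. Of all tested genes 76.7% did not overlap either, so separation at most steps is not particular to this pathway.

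**Figure D4:**
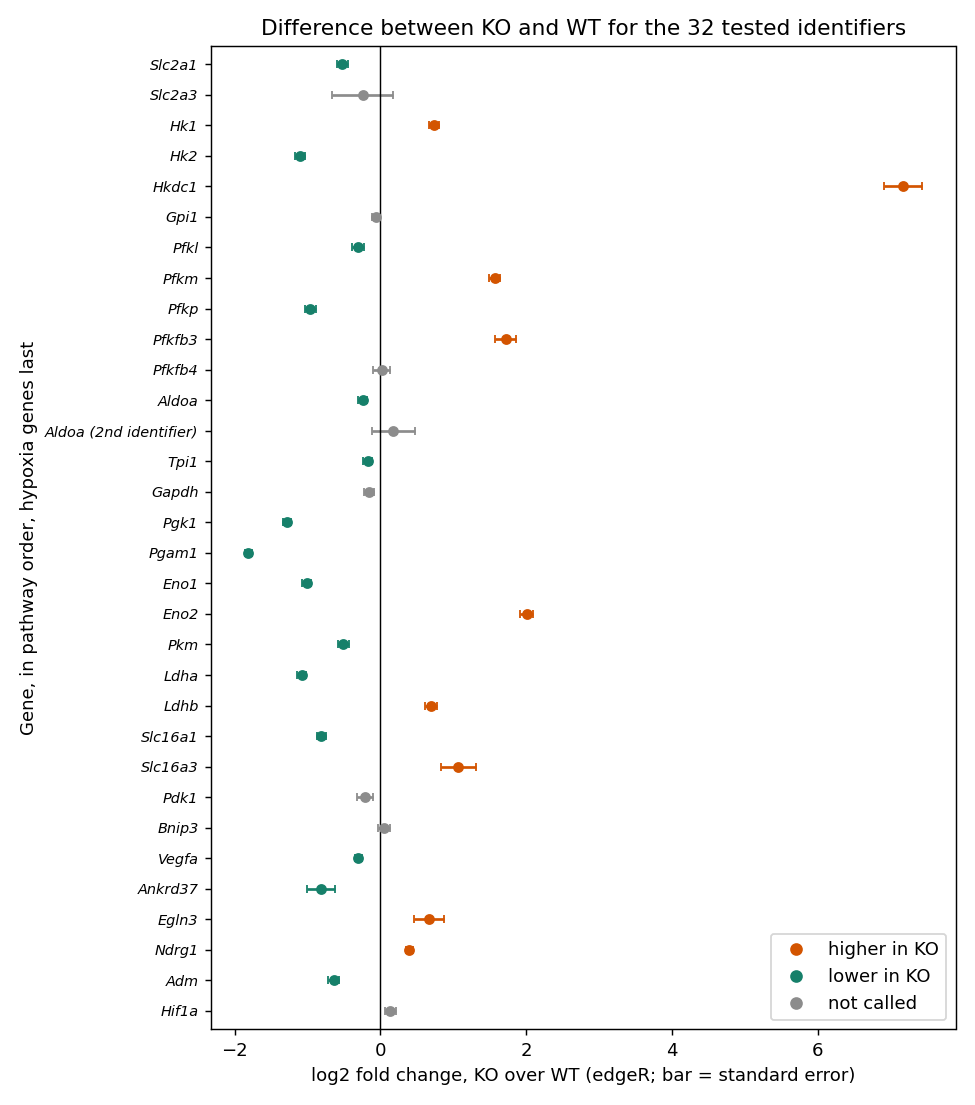
log2 fold change (KO over WT, edgeR) with its standard error for the 32 tested identifiers in pathway order, coloured by call at an adjusted p under 0.05. Pgk1, Pgam1, Eno1 and Ldha lie at −1.28, −1.81, −1.01 and −1.08, and Hkdc1 stands apart at 7.17.

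Several of these genes have near-identical annotated copies elsewhere in the genome, and the deposited counts hold many reads on them. GENCODE M21 has 91 counted copies of Gapdh, with at least 95% identity to its transcripts, and their summed reads equalled 91.8% of Gapdh's own in KO and 98.9% in WT. For Pgk1 the 4 copies held 83.7% in KO and 85.9% in WT, for Eno1 the 4 copies held 71.0% in KO and 71.3% in WT, and for Pgam1 the 2 copies held 28.7% in KO and 28.6% in WT. How reads that match several places were counted is not given in the sources used here, so levels of these 4 genes are uncertain in absolute terms. With the copies' reads added, the log2 fold change was −1.30 for Pgk1, −1.81 for Pgam1, −1.01 for Eno1 and −0.20 for Gapdh, and none of these 4 calls changed.

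The 4 leading genes that fell at least 2-fold were also compared in promoter sequence, beside Eno2, the enolase gene that rose. Windows run from 250 bases before to 50 after the start and come from RefSeq on GRCm38.p6, with the most upstream start taken where a gene has several. Capitals mark ACGTG or GCGTG on either strand, the core of the element that HIF-1 binds, and a palindrome CACGTG (the E-box bound by MYC) holds that core on both strands and so counts as 2 matches. The windows are chrX:106186850-106187149 (plus strand) for Pgk1, chr19:41911621-41911920 (plus) for Pgam1, chr4:150236458-150236757 (plus) for Eno1, chr7:46845554-46845853 (plus) for Ldha and chr6:124769624-124769923 (minus) for Eno2.
Pgk1: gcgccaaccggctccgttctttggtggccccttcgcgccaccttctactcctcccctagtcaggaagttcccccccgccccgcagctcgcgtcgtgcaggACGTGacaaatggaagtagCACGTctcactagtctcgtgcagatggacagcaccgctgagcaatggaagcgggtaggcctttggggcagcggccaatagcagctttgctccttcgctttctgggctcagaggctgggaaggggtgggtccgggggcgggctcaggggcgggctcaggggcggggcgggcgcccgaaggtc
Pgam1: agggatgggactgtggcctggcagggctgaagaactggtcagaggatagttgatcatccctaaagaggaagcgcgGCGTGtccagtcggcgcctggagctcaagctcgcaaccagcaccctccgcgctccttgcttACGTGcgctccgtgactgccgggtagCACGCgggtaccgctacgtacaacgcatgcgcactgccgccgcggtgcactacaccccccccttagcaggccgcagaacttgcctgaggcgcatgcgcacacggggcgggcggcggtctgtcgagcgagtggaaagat
Eno1: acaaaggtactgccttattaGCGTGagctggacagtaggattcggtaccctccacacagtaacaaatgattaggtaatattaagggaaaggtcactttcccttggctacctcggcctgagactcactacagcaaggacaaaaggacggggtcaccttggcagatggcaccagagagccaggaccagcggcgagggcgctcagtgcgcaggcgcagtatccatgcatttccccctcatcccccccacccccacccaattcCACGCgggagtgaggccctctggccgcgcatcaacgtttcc
Ldha: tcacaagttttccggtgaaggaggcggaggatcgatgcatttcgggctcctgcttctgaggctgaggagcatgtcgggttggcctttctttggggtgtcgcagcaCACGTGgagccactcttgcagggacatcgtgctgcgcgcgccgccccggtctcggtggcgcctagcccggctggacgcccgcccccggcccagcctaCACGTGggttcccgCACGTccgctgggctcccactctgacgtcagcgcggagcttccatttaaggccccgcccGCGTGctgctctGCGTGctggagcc
Eno2: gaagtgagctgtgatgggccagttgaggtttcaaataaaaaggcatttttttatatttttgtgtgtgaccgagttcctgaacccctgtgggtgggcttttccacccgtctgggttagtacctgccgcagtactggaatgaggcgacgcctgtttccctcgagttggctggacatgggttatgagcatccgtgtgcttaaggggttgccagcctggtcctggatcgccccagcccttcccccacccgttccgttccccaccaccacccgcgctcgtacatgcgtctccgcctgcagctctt

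The Ldha window holds 7 matches, 4 of them in 2 E-boxes, the Pgam1 window 3, the Pgk1 and Eno1 windows 2 each and the Eno2 window 0. Over the set 30 genes had a window, and 35 of their 44 windows (79.5%) held the core, beside 43.8% of all 32851 promoter windows of that length. The set was picked for glycolysis and the hypoxia response, so a higher share with this core is not a result of these libraries. Some windows of the same gene, as for Eno1 and Aldoa, also overlap and are counted separately. The set's windows also had a higher median GC content, at 61.2% beside 52.7% over all windows. An E-box was in 6 of the 44 windows (13.6%), beside 7.15% of all. Counting 1 window per gene, 11 of 15 genes called lower, 6 of 8 called higher and 5 of 6 not called held the core. The Eno2 window, with 0 matches, is therefore unlike those of most genes that rose. A match is a description of letters only, and which start each cell line uses was not measured.

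The 8 hypoxia response genes moved both ways. Of them 2 were called higher and 3 lower, with a median log2 fold change of −0.08. That is 62.5% called, beside 75.1% of all tested genes. All tested genes also divided, at 37.7% higher and 37.5% lower, so the split is not particular to the hypoxia genes. Hif1a, which encodes the oxygen-regulated subunit of HIF-1, had 223, 191 and 195 CPM in KO and 198, 169.6 and 186 CPM in WT. The groups overlapped and Hif1a was not called (0.14, SE 0.0750, edgeR adjusted p = 0.12), but it was called higher with library totals alone (0.22, edgeR adjusted p = 0.023). HIF-1 is controlled mainly through the stability of this protein, which RNA counts do not measure.

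Among the targets that fell, Adm, which encodes the vasodilator peptide adrenomedullin, had 29.3, 28.6 and 25.7 CPM in KO, against 38.9, 45.5 and 45.5 CPM in WT (−0.64, SE 0.0797, edgeR adjusted p = 3.5e-05). Ankrd37, an ankyrin repeat gene, had 1.07, 1.46 and 1.29 CPM in KO, against 2.00, 2.29 and 2.40 CPM in WT (−0.81, SE 0.190, edgeR adjusted p = 0.0029). Vegfa, the angiogenic growth factor, averaged 52.2 ± 0.403 CPM in the KO libraries and 64.4 ± 1.26 CPM in the WT libraries (−0.30, edgeR adjusted p = 0.00024). None of the 3 overlapped between groups. For Ankrd37, Lrp2bp and Ufsp2 on the other strand overlap 26.4% of its exonic sequence. The counting program's strand setting is not known here, so reads of such overlapping genes may not be told apart.

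Ndrg1, a stress-responsive differentiation gene, averaged 162 ± 7.57 CPM in the KO libraries and 123 ± 2.30 CPM in the WT libraries and rose (0.40, SE 0.0528, edgeR adjusted p = 4.7e-05). Egln3, the prolyl hydroxylase PHD3, which is itself a HIF target, had 3.42, 4.41 and 2.74 CPM in KO, against 1.96, 2.60 and 2.07 CPM in WT. KO replicate 3 lay just above the highest WT library, and its call (0.67, edgeR adjusted p = 0.012) was lost without KO replicate 2 (0.48, edgeR adjusted p = 0.053) or WT replicate 3 (0.60, edgeR adjusted p = 0.055). Bnip3, a mitophagy receptor, averaged 24.9 ± 2.46 CPM in the KO libraries and 24.1 ± 1.81 CPM in the WT libraries and was not called (0.05, edgeR adjusted p = 0.65). Gm45507 on the other strand overlaps 22.3% of its exonic sequence. Pdk1, the kinase that holds back pyruvate dehydrogenase, averaged 16.9 ± 0.901 CPM in the KO libraries and 19.6 ± 3.07 CPM in the WT libraries and was not called (−0.21, edgeR adjusted p = 0.1), though it was called lower with no low-count filter (−0.23, edgeR adjusted p = 0.031) and without WT replicate 3 (−0.34, edgeR adjusted p = 0.013).

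All 7 tested genes of the machinery that sets HIF activity were called, 3 higher and 4 lower. Of all tested genes 75.1% were called, 37.7% higher and 37.5% lower, so a count in so short a list is not a result about the machinery. Arnt, the constitutive partner subunit of HIF-1, averaged 127 ± 6.16 CPM in the KO libraries and 47.2 ± 1.88 CPM in the WT libraries and rose (1.43, edgeR adjusted p = 9e-09). Vhl (0.58) and Egln2 (0.25), both of which act in HIF-alpha turnover, also rose. Egln1, the main oxygen-sensing prolyl hydroxylase, averaged 56.9 ± 1.91 CPM in the KO libraries and 109.6 ± 1.77 CPM in the WT libraries and fell (−0.94, edgeR adjusted p = 5.9e-08). Hif1an (−0.83), which encodes the asparaginyl hydroxylase FIH, Cited2 (−0.98), an inhibitor that competes for the coactivator p300, and Arnt2 (−0.45) fell as well. Epas1, the HIF-2 alpha gene, had too few reads to be tested, with 0, 0 and 4 reads in KO and 0 in each WT library.

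**Figure D5:**
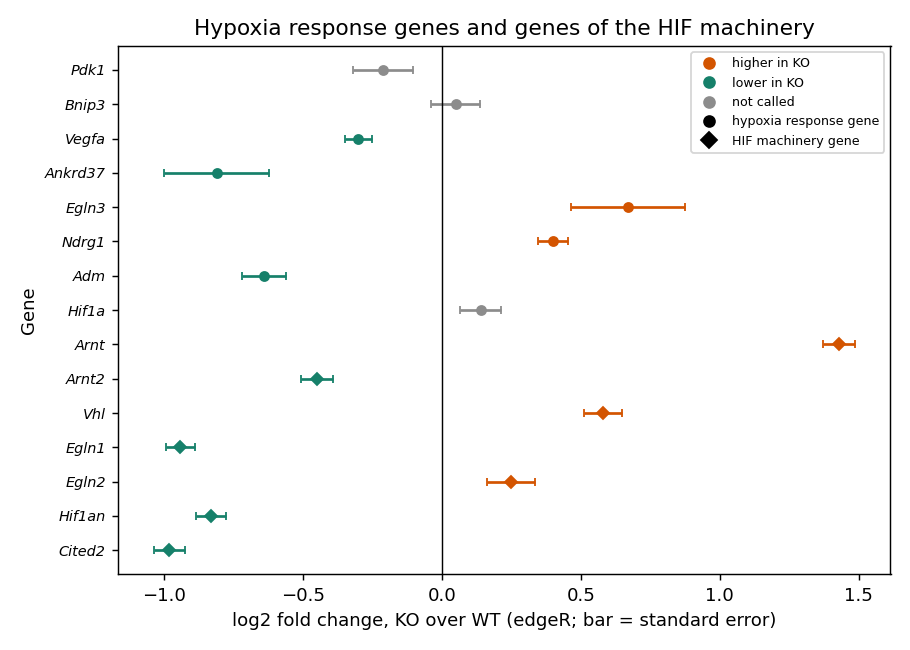
log2 fold change (KO over WT, edgeR) with its standard error for the 8 hypoxia response genes (circles) and the 7 tested genes of the HIF machinery (diamonds). Arnt is highest at 1.43 and Cited2 lowest at −0.98, and the hypoxia response genes lie between −0.81 and 0.67.

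A wider list of 26 HIF target genes was also divided, with 9 of 21 tested genes higher and 9 lower (median log2 fold change 0.03). Lox, a collagen cross-linking enzyme (2.44), and Rora, a nuclear receptor (3.59), rose, and Tfrc, the transferrin receptor (−2.49), fell. The 8 glycolysis regulators held 1 gene that rose and 4 that fell among 7 tested. Txnip, which restrains glucose uptake, averaged 162 ± 7.04 CPM in the KO libraries and 52.9 ± 2.58 CPM in the WT libraries (1.62, edgeR adjusted p = 4.5e-09). Myc, a transcriptional activator of glycolytic genes, averaged 48.8 ± 1.54 CPM in the KO libraries and 114 ± 2.02 CPM in the WT libraries (−1.22, edgeR adjusted p = 1.1e-08), and Tigar (−1.24) and Trp53 (−0.40) also fell.

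Isozymes outside the set were in part expressed. Of 24 such genes 9 were tested, and 6 were called higher and 3 lower (median 1.09). Eno3, the muscle enolase, averaged 62.7 ± 3.89 CPM in the KO libraries and 14.3 ± 1.41 CPM in the WT libraries (2.13, edgeR adjusted p = 5.4e-09), a rise in the same direction as Eno2. The intracellular glucose transporter gene Slc2a8 rose (2.54), while Adpgk, an ADP-dependent glucokinase (−1.0), and Bpgm, which makes 2,3-bisphosphoglycerate (−1.0), fell.

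Pathways that branch from or follow glycolysis were counted from the same fit. In the pentose phosphate pathway 2 of 8 tested genes rose and 3 fell, with H6pd (0.74) higher and Taldo1 (−0.50), Rpe (−0.78) and Rpia (−0.42) lower. In glycogen metabolism 3 of 11 rose and 2 fell, among them the phosphorylase kinase subunit genes Phka2 (0.85) and Phkb (0.99), which were higher, and Gbe1, the branching enzyme (−1.21), which was lower. All 3 tested gluconeogenesis genes were called, with Pcx (1.24) and Pck2 (0.60) higher and G6pc3 (−0.27) lower.

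Among genes that bring pyruvate into mitochondria 2 of 11 tested rose and 7 fell (median −0.35). Pdk2, another pyruvate dehydrogenase kinase, averaged 13.8 ± 0.954 CPM in the KO libraries and 1.66 ± 0.545 CPM in the WT libraries (3.03, edgeR adjusted p = 8.3e-08), whereas Pdk3 (−0.92) and the complex subunit genes Pdhx (−0.68) and Pdhb (−0.50) fell. In the citric acid cycle 2 of 16 rose and 7 fell (median −0.06). Idh3a averaged 72.8 ± 4.71 CPM in the KO libraries and 192 ± 3.69 CPM in the WT libraries (−1.40, edgeR adjusted p = 1.1e-08), and Mdh2 (−0.87), Cs (−0.81) and Sdhd (−0.68) fell. Each count of these lists is to be read beside the background of 37.7% higher and 37.5% lower. The same holds for the HIF target, regulator and isozyme lists above.

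Members that are neighbours in the genome did not all move together. Hk1 and Hkdc1, described above, both rose. On chromosome 6, which holds 6 of the genes, Eno2 and Tpi1 are 40.9 kb apart and Tpi1 and Gapdh 347 kb apart, and Eno2 rose while Tpi1 and Gapdh differed by −0.17 and −0.15.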

How the data were processed

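The authors deposited raw counts per Ensembl gene, 1 file per library. Per the submitters' processing notes, reads were aligned with STAR 2.7.10b to GRCm38; no source used here gives the counting program, its annotation release or its strand setting. Per the labels' protocols, polyadenylated RNA was made into stranded libraries. Each file lists the same 28293 genes, of which 28230 were found in GENCODE M21 and 63 were not.

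The test of KO against WT was run in edgeR 4.0.16 (R 4.3.3) with TMM scaling, the default low-count filter, a quasi-likelihood test and Benjamini-Hochberg adjustment over all tested genes; calls need an adjusted p under 0.05. Levels are counts on a scale of 1000000 per TMM-scaled library (CPM), divided by exonic kb of M21 where genes are compared. Standard errors (SE) were derived as the absolute log2 fold change divided by the square root of the quasi-likelihood F statistic. Isozyme shares were tested by exact permutation, 2-sided. Copies were found with blastn 2.17.0 (at least 95% identity over at least 50% of the copy's transcript). The script for the tests was checked on simulated data. The alternatives were other scalings and filters, DESeq2 1.42.0, limma-voom 3.58.1, a replicate block, a 1.5-fold minimum, unscaled shares, added copies and leaving out each library. The members and lists were chosen with earlier results of these data known. Every member is named, with values in each library for members changed at least 1.5-fold, for isozyme families and for Hif1a, and with other lists giving up to 4 genes of smallest p at 5 CPM or more in the higher group and every tested gene of the HIF machinery. A few genes that this rule names are not reported here. Figures used matplotlib 3.10.9.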

Additional observations from a re-analysis of the deposited data

How the results depend on the processing

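Of the 32 tested identifiers 23 kept their direction and their side of the threshold in every alternative run on single genes, which leaves out the 1.5-fold minimum. Library totals in place of TMM moved the median log2 fold change of all genes by 0.08 and gave 10 members higher and 14 lower. With the 1.5-fold minimum 8 members were called higher in place of 9, 9 were called lower in place of 15, and 3399 of all genes were called lower in place of 5652. Leaving out 1 library gave 8 to 9 members higher and 14 to 16 lower. Genes that were not called changed sign near 0: leaving out 1 library gave log2 fold changes of −0.51 to 0.04 for Slc2a3, −0.10 to 0.00 for Gpi1 (0.02 with library totals), −0.06 to 0.13 for Pfkfb4 and −0.03 to 0.11 for Bnip3. The causes were not tested.

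Deviations from the group mean had correlations of 0.286, −0.125 and 0.251 between same-numbered libraries, and of −0.497 to 0.437 between the other KO and WT libraries. So few values cannot settle whether the numbers pair the libraries. With the replicate block 10 members were higher and 16 lower, and 5832 and 5865 of all genes. Hif1a (0.14, edgeR adjusted p = 0.016) and Gapdh (−0.15, edgeR adjusted p = 0.034) were called there.

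With unscaled counts the KO minus WT share differences in percentage points were 16.4 for Hk1, −20.1 for Hk2, 3.74 for Hkdc1, −12.9 for Pfkl, 35.4 for Pfkm, −22.5 for Pfkp, 2.04 for Eno2 and 3.70 for Ldhb, against 18.8, −24.6, 5.81, −18.5, 31.1, −12.6, 2.33 and 7.23 as reported. Adding the copies gave 1.38 for Eno2. Leaving out 1 library gave −0.0074 to 0.145 for Slc2a3, the only share that changed sign. Adding copies to the counts of calls was chosen after seeing the data and gave 9 higher and 15 lower. Depth limits Slc2a3, Aldoc and the second Aldoa identifier, at 13 reads or fewer per library.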
